A study of Homo sapiens with 4 samples.

Results

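A set of 10 genes of endothelial cell junctions and the endothelial cell surface, CDH5, PECAM1, CD34, EMCN, ESAM, CLDN5, PLVAP, MMRN2, ROBO4 and EGFL7, was followed through hematopoietic differentiation of human pluripotent stem cells. They were chosen by gene symbol, and each symbol stood for 1 of the 58274 gene identifiers of the table, so that 10 of 10 were found. All 10 reached 1 FPKM (fragments per kilobase of transcript, scaled to the mapped fragments of the library) in at least 1 library, as did 17137 genes in all. ROBO4 reached this level in the CD31+CD34+ library alone. The genes are read in each population, and those kept are set against those lost between CD31+CD34+ and CD43+ cells.

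All 4 populations shared the genome of BC1, an induced pluripotent line from human cells, and the labels name no deleted or added gene. The first was undifferentiated BC1. The second, at day 2, was APLNR+ mesoderm, named after the apelin receptor. At day 5 came hemogenic endothelial progenitors (HEPs), positive for CD31 and CD34, and at day 8 hematopoietic progenitor cells (HPCs), positive for CD43. Mesoderm was induced with activin A and BMP4, and VEGF and bFGF were given afterwards. Each population was measured in 1 library, so no difference below has a replicate check, no test was run, and one line does not stand for others. Depth recovered from the values lay between 19600000 mapped fragments for BC1 and 23600000 for HEPs, with 21500000 for mesoderm cells and 21550000 for HPCs. Brackets after a level or a fold give the 95% interval that these depths allow, which covers counting error only.

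Endothelial cells line blood vessels and hold to each other through adherens junctions, built on VE-cadherin, and through tight junctions, built on claudins and related immunoglobulin-like proteins. Their surface also carries sialomucins, guidance receptors and proteins that shape the openings of the vessel wall, and they secrete matrix proteins that bind these receptors. Blood cells first arise from hemogenic endothelium, whose cells round up and leave the vessel wall in the endothelial to hematopoietic transition. Some endothelial surface proteins, CD31 and CD34 among them, are also known from blood cells or their progenitors.

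Apart from EGFL7, the members were low in pluripotent and mesoderm cells, most of them appeared together in HEPs, and they then parted in HPCs. From APLNR+ to CD31+CD34+, 8 of the 10 rose by at least 2 on the log2(FPKM + 1) scale, a size that 4.08% of the 17137 genes reached in that direction, and 9 were higher by at least 1, as were 13% of all genes. Of the 8, PECAM1 and CD34 are the genes whose proteins defined the HEPs. No member fell at this step, where 3.15% of all genes did. From CD31+CD34+ to CD43+, 4 of them, CDH5, PLVAP, MMRN2 and ROBO4, fell by at least 2, where 4.32% of all genes did. Under scaling by median-of-ratios size factors ROBO4 was at -1.99 and left this class, which made 3. All 4 had risen by at least 2 into HEPs. Of the 699 genes of all kinds that had done so, 37.1% then fell by at least 2. Another 3, CD34, EGFL7 and CLDN5, were lower by between 1 and 2. Lower by at least 1 were thus 7, beside 13.5% of all genes. The remaining 3, PECAM1, EMCN and ESAM, were lower by less than 1 or higher. No member was higher by 2 or by 1, where 2.28% and 7.63% of all genes were. These classes are called lost, partly lowered and kept, and since they were cut from this contrast they only describe it. In what follows, rose and fell are used for changes of at least 2 on this scale.

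**Figure D1:**
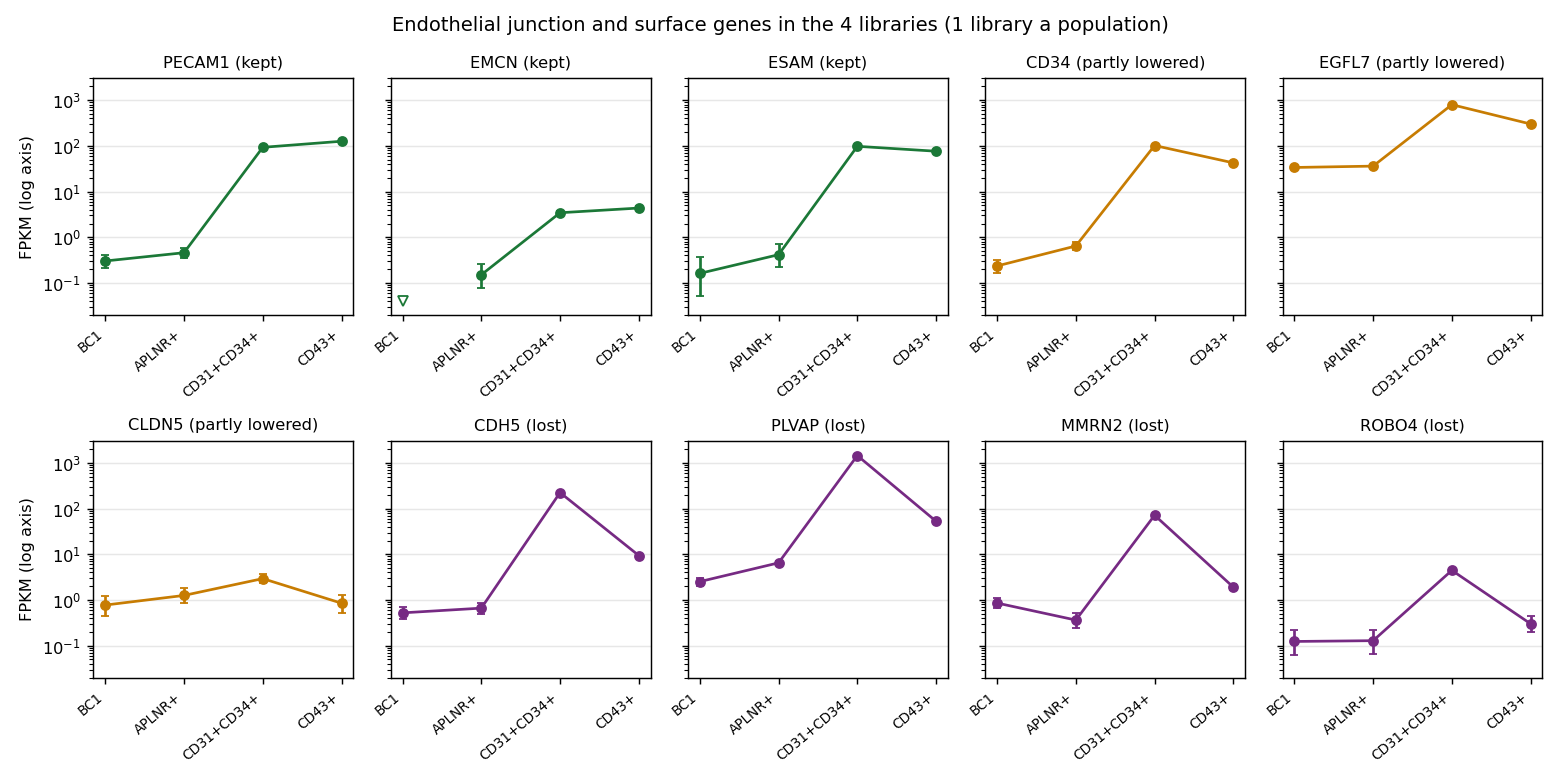
Level of the 10 genes in the 4 libraries, in FPKM on a log axis, with 95% counting intervals as bars and the class of each gene in its title. The open triangle marks EMCN in BC1, listed at 0 and drawn at its floor of 3 fragments. The upper row holds the 3 kept genes, CD34 and EGFL7, and CDH5, PLVAP, MMRN2 and ROBO4 in the lower row drop steeply at the last step.

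CDH5 encodes VE-cadherin, the cadherin of the endothelial adherens junction (GRCh38, chromosome 16, 66366622 to 66404786, plus strand, ENSG00000179776.17). Its level was 0.523 FPKM in undifferentiated cells (0.377 to 0.718), 0.663 FPKM in mesoderm cells (0.499 to 0.862), 224 FPKM in HEPs (221 to 228) and 9.38 FPKM in HPCs (8.74 to 10.1). HEPs thus stood far above the other 3 populations, and the intervals of BC1 and mesoderm cells overlapped. The level in HEPs was 338-fold that of mesoderm cells (260.1 to 449.8). In HPCs it was 23.9-fold lower (22.3 to 25.7). On the log2 scale it fell by 4.44, and 0.298% of all genes fell by as much.

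PECAM1 encodes CD31, an immunoglobulin-like adhesion molecule of endothelial junctions that platelets and white blood cells carry too (chromosome 17, 64319415 to 64413776, minus strand, ENSG00000261371.5). In the order of differentiation its levels were 0.303, 0.460, 93.1 and 126 FPKM, and all lists of 4 levels below keep this order. HPCs were the highest of the 4 libraries, 1.36-fold above HEPs (1.33 to 1.39). The HEPs were defined by CD31 and CD34, so the 203-fold difference of PECAM1 between APLNR+ and CD31+CD34+ and the 158-fold difference of CD34 follow the definition of the cells and are no findings.

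CLDN5 and ESAM belong to the tight junction. CLDN5, the main claudin of endothelial cells (chromosome 22, 19523024 to 19527545, minus strand, ENSG00000184113.9), was at 0.774, 1.26, 2.94 and 0.850 FPKM. It was the member with the smallest difference between mesoderm cells and HEPs, 2.33-fold (1.51 to 3.70), which did not reach the threshold. Its levels rest on about 17, 30, 76 and 20 fragments, and its 3.45-fold lower level in HPCs has an interval from 2.10 to 6.00. ESAM, an immunoglobulin-like protein of endothelial tight junctions and platelets (chromosome 11, 124752583 to 124762290, minus strand, ENSG00000149564.11), was at 0.162, 0.416, 98.0 and 76.5 FPKM. It rose 235-fold into HEPs (139.8 to 430.1) and was 1.28-fold lower in HPCs (1.22 to 1.35). ESAM was therefore far above CLDN5 per transcript length in HEPs and HPCs, and below it in the first 2 populations.

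CD34 and EMCN encode sialomucins, heavily glycosylated proteins of the cell surface. CD34 (chromosome 1, 207880972 to 207911402, minus strand, ENSG00000174059.16) was at 0.236, 0.645, 102 and 42.6 FPKM, and its level in HPCs was 2.40-fold below that in HEPs (2.33 to 2.46). HEPs were defined by CD31 and CD34 and HPCs by CD43. The part of this definition in the lower CD34 level and in the class of CD34 was not tested. The same holds for PECAM1 between HEPs and HPCs. HPCs still held 180.5-fold the level of undifferentiated cells (131 to 256). EMCN, endomucin (chromosome 4, 100395341 to 100880126, minus strand, ENSG00000164035.9), was listed at 0 in undifferentiated cells, and its later levels were 0.151, 3.44 and 4.36 FPKM. EMCN was thus low even where it was highest. Its change into HEPs, 1.95 on the log2 scale and 22.8-fold (13.1 to 45.5), lay just under the threshold of 2. HPCs were 1.27-fold above HEPs (1.08 to 1.48). LINC01218, a non-coding gene on the same strand within the annotated span of EMCN, was at 0.228, 0, 3.55 and 13.1 FPKM, and its part in the EMCN values was not tested.

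PLVAP encodes the protein of the diaphragms that close endothelial fenestrae and caveolae (chromosome 19, 17351448 to 17377350, minus strand, ENSG00000130300.8). It went from 2.52 FPKM in undifferentiated cells (2.05 to 3.05) and 6.50 FPKM in mesoderm cells (5.77 to 7.30) to 1449.5 FPKM in HEPs (1439 to 1460.4), with 52.8 FPKM left in HPCs (50.6 to 55.0). No 2 of these intervals overlapped. PLVAP rose by 7.60 on the log2 scale into HEPs, where 0.00584% of the 17137 genes, PLVAP alone, rose by as much, and it stood at rank 47 of the protein-coding genes there. In HPCs it was 27.5-fold lower (26.3 to 28.6) and still at rank 1844.

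ROBO4 encodes the endothelial member of the roundabout receptors, which is known to steady vessel walls (chromosome 11, 124883691 to 124898500, minus strand, ENSG00000154133.14). It was at 0.124, 0.129, 4.45 and 0.301 FPKM, on about 11, 12, 465 and 29 fragments. HEPs were the one population with more than a trace. ROBO4 was 14.8-fold lower in HPCs (10.1 to 22.1). On the log2 scale it fell by 2.07, closest to the threshold of the lost genes.

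MMRN2 and EGFL7 encode secreted proteins of the endothelial matrix. MMRN2, multimerin-2 (chromosome 10, 86935540 to 86969481, minus strand, ENSG00000173269.13), was at 0.857, 0.363, 71.5 and 1.91 FPKM. It was the member with the largest relative loss, 37.5-fold from HEPs to HPCs (32.2 to 44.0), and the one member lower in mesoderm cells than in BC1, 2.36-fold (1.53 to 3.71). SNCG, which lies within the MMRN2 span on the opposite strand, was at 13.7, 3.89, 59.8 and 14.0 FPKM. Whether strand was used in counting is not given in the sources used here, so fragments of MMRN2 and SNCG where they overlap cannot be told apart. ADIRF-AS1, a non-coding gene, overlaps the MMRN2 span on the same strand. It was at 1.60, 1.69, 9.15 and 3.89 FPKM, and its part in the MMRN2 values was not tested.

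EGFL7, a small protein with EGF-like domains that endothelial cells secrete (chromosome 9, 136658856 to 136672678, plus strand, ENSG00000172889.15), was at 33.7, 36.1, 800.1 and 302 FPKM. It was the one member well expressed before HEPs appeared, at rank 2743 of the protein-coding genes in BC1. It rose 22.1-fold into HEPs (21.0 to 23.4) and was 2.65-fold lower in HPCs (2.60 to 2.71), where it was the highest of the 10. The EGFL7 gene holds MIR126, the endothelial and progenitor microRNA, whose 2 mature forms are shown because the host gene was among the highest of the set. Capitals mark the seed, bases 2 to 8, and the sequences are those of RefSeq on GRCh38.p14, chromosome 9, plus strand, 136670616 to 136670636 for the 5p form and 136670653 to 136670674 for the 3p form.
hsa-miR-126-5p: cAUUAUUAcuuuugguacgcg
hsa-miR-126-3p: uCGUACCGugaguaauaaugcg
The seeds of the 2 forms differ. MIR126 was listed at 0 in all 4 libraries, and libraries of this kind do not measure mature microRNAs.

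The share of the HEP level left in HPCs ordered the members as follows. It was 136% for PECAM1 (133 to 139), 127% for EMCN (108 to 148) and 78.1% for ESAM (74.2 to 82.2). CD34 held 41.7% (40.6 to 42.8), EGFL7 37.7% (36.9 to 38.5) and CLDN5 28.9% (16.7 to 47.7). ROBO4 held 6.76% (4.52 to 9.94), CDH5 4.18% (3.89 to 4.49), PLVAP 3.64% (3.49 to 3.80) and MMRN2 2.67% (2.27 to 3.10). The intervals of PECAM1 and EMCN overlapped, as did that of CLDN5 with those of CD34 and EGFL7. The lost gene nearest to its threshold was ROBO4 at -2.07, and the nearest member outside that class was EGFL7 at -1.40. Just inside the threshold between partly lowered and kept lay CLDN5 at -1.09, and just outside it ESAM at -0.35. Among the 699 genes of all kinds that rose by at least 2 into HEPs, 37.1% then fell by at least 2, 16.6% were lower by 1 to 2 and 46.4% were kept. Of the 8 members among them, CDH5, PLVAP, MMRN2 and ROBO4 were lost, CD34 and EGFL7 partly lowered, and PECAM1 and ESAM kept. Both steps use the same CD31+CD34+ library, so its counting error enters them with opposite sign.

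**Figure D2:**
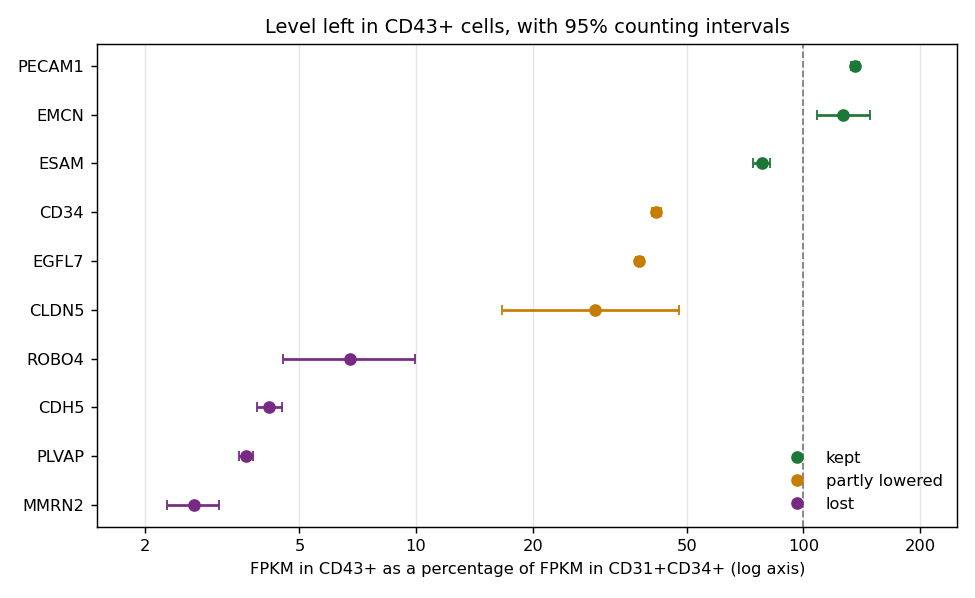
Level in CD43+ cells as a percentage of that in CD31+CD34+ cells for the 10 genes, on a log axis, with 95% counting intervals. PECAM1 and EMCN lie above 100%, ESAM, CD34, EGFL7 and CLDN5 between 28.9% and 78.1%, and ROBO4, CDH5, PLVAP and MMRN2 under 10%.

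The levels of lost and kept genes in HEPs overlapped. The lost genes were at 4.45, 71.5, 224 and 1449.5 FPKM there and the kept genes at 3.44, 93.1 and 98.0 FPKM. The partly lowered genes were at 2.94, 102 and 800.1 FPKM. CLDN5 stood at 1.98 on the log2(FPKM + 1) scale in HEPs, so it could not have fallen by 2. EMCN, at 2.15, could have done so only by going almost to 0. The classes thus depend in part on the level in HEPs by their definition. The median change of the 10 into HEPs was 5.85, beside a median of 0.01 over all genes, and into HPCs it was -1.32, beside -0.08. From BC1 to APLNR+ no member rose or fell by at least 2, where 2.68% of all genes rose and 2.29% fell. PLVAP, at 1.09, was the one member higher by at least 1 at this first step, beside 9.15% of all genes, and none was lower by at least 1, beside 9.32%. With a pseudocount of 0.1, CD34 (1.15) and EMCN (1.33) were also higher by at least 1 and MMRN2 (-1.05) was lower by at least 1.

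**Figure D3:**
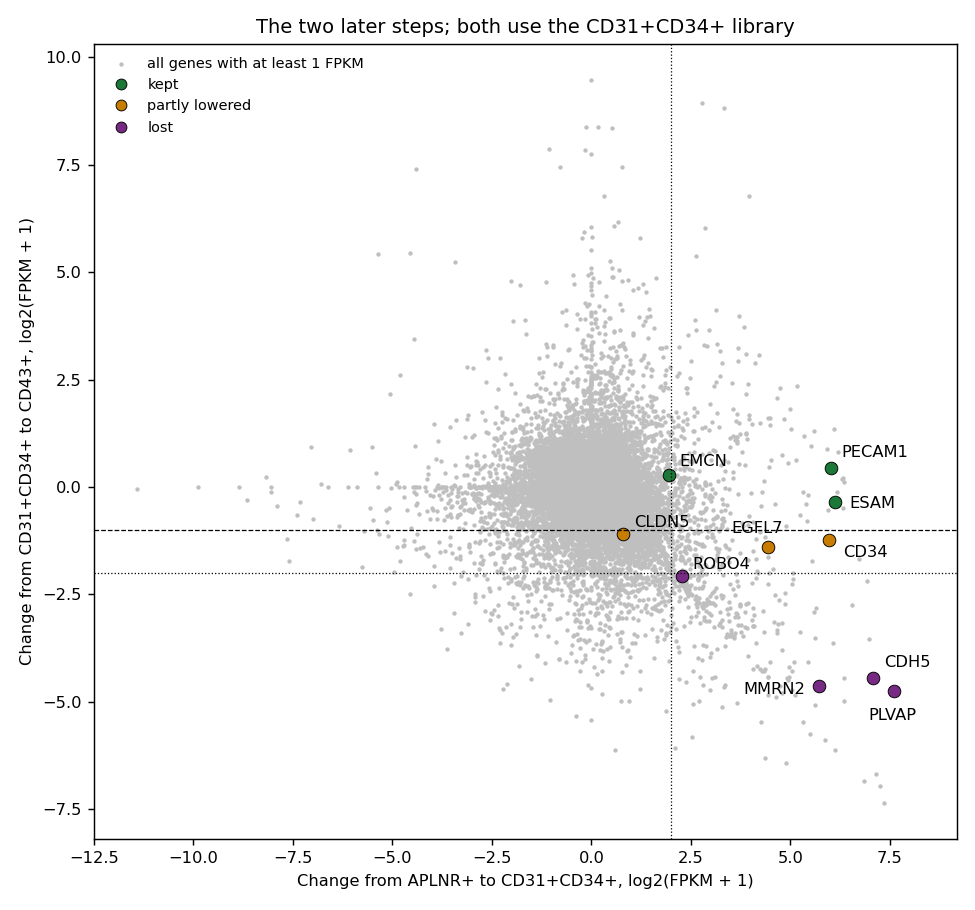
Change of every gene with at least 1 FPKM in a library, on the log2(FPKM + 1) scale, from APLNR+ to CD31+CD34+ on the x axis and from CD31+CD34+ to CD43+ on the y axis. Dotted lines mark changes of 2 and the dashed line a change of -1. PECAM1, ESAM, CD34, CDH5, PLVAP and MMRN2 share a rise of 5.73 to 7.60 and spread from 0.44 to -4.75 in the later step.

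The order of the members by FPKM, which is a level per transcript length, was largely undecided before HEPs and clear afterwards. In BC1, EGFL7 stood above PLVAP and PLVAP above the other members, while the intervals of each following pair from MMRN2 down to ROBO4 overlapped. In APLNR+ the same held from CLDN5 down to ROBO4. In CD31+CD34+ the order was PLVAP, EGFL7, CDH5, CD34, ESAM, PECAM1, MMRN2, ROBO4, EMCN and CLDN5, and neighbours overlapped only for CD34 with ESAM and for EMCN with CLDN5. In CD43+ it was EGFL7, PECAM1, ESAM, PLVAP, CD34, CDH5, EMCN, MMRN2, CLDN5 and ROBO4, with no overlap between neighbours. CDH5 moved from rank 354 of the protein-coding genes in HEPs to rank 6898 in HPCs, and PECAM1 from rank 1029 to rank 697. Summed over the 10 genes, the level was 39.2, 46.7, 2849.6 and 617 FPKM in the 4 populations. Of these sums EGFL7 alone held 33.7, 36.1, 800.1 and 302 FPKM, and PLVAP held 1449.5 FPKM in HEPs.

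Of the lost genes, CDH5, PLVAP and MMRN2 were not back at the mesoderm level in HPCs. CDH5 was 14.2-fold above APLNR+ cells (10.8 to 19.0), PLVAP 8.12-fold (7.18 to 9.22) and MMRN2 5.25-fold (3.59 to 7.93). ROBO4 was 2.34-fold above (1.20 to 5.21), but on about 12 and 29 fragments, a trace in both libraries. CLDN5 was the one member whose interval included no difference, with 0.676 times its mesoderm level (0.363 to 1.23). Since these are bulk samples, fewer endothelial cells in the CD43+ population and less RNA per cell cannot be told apart.

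Other genes of the same families took other courses than the members. Of the 12 cadherins with at least 1 FPKM in a library, 2 rose and 5 fell into HEPs, beside 4.08% and 3.15% of all genes. CDH5 made the larger of the 2 rises. CDH1 and CDH3, E-cadherin and P-cadherin, went down from 70.9 and 99.6 FPKM in BC1 to 0.178 and 2.48 FPKM in HEPs, where CDH5 was at 224 FPKM. CDH2, N-cadherin, was highest in mesoderm cells, at 45.3 FPKM, and at 10.003 and 0.682 FPKM in HEPs and HPCs. CDH13, the cadherin without a transmembrane part, followed CDH5, with 45.4 FPKM in HEPs and 0.743 FPKM in HPCs, whereas CDH11 was at 158 FPKM in HEPs and kept 51.9 FPKM in HPCs. HPCs thus held more CDH11 than CDH5 per transcript length.

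CLDN5 lay below CLDN6, CLDN7, CLDN10 and CLDN12 in each population. In HEPs, at 2.94 FPKM, it stood beside CLDN7 at 41.7 FPKM, CLDN10 at 26.9 FPKM, CLDN6 at 15.02 FPKM and CLDN12 at 12.1 FPKM. CLDN6 fell from 409 FPKM in BC1 to 68.3 FPKM in mesoderm cells. None of the 12 claudins that passed the filter fell by at least 2 into HPCs, where 4.32% of all genes did. CLDN1, CLDN3, CLDN4, CLDN5, CLDN11, CLDN19 and CLDN23 were too low in HEPs to fall so far on this scale. Of the immunoglobulin-like junction genes related to ESAM, JAM3 rose beside it into HEPs, from 31.3 to 148 FPKM, but was 4.30-fold lower in HPCs (4.12 to 4.48), at 34.5 FPKM. F11R was at 43.1 and 26.3 FPKM in HEPs and HPCs, and CXADR, the coxsackievirus and adenovirus receptor, fell from 9.88 FPKM in mesoderm cells to 1.34 FPKM in HEPs.

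The multimerins went opposite ways in HPCs. MMRN1, the multimerin of platelets and endothelium, was at 0.0324, 0.0495, 12.5 and 102 FPKM, so that both genes rose into HEPs and MMRN1 then rose 8.21-fold (7.77 to 8.68) while MMRN2 fell 37.5-fold. EMILIN1 and EMILIN2 of the same family were at 48.8 and 23.0 FPKM in HPCs. PODXL, a sialomucin related to CD34, fell from 351 FPKM in undifferentiated cells to 9.10 FPKM in mesoderm cells, where CD34 was at 0.645 FPKM. ROBO1 and ROBO3 were higher than ROBO4 in each population, at 23.8 and 18.3 FPKM in HEPs and 9.36 and 10.7 FPKM in HPCs. EGFL8, the relative of EGFL7, was at 11.99 FPKM in HEPs and 11.2 FPKM in HPCs, a ratio of 0.934 with an interval from 0.785 to 1.11.

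**Figure D4:**
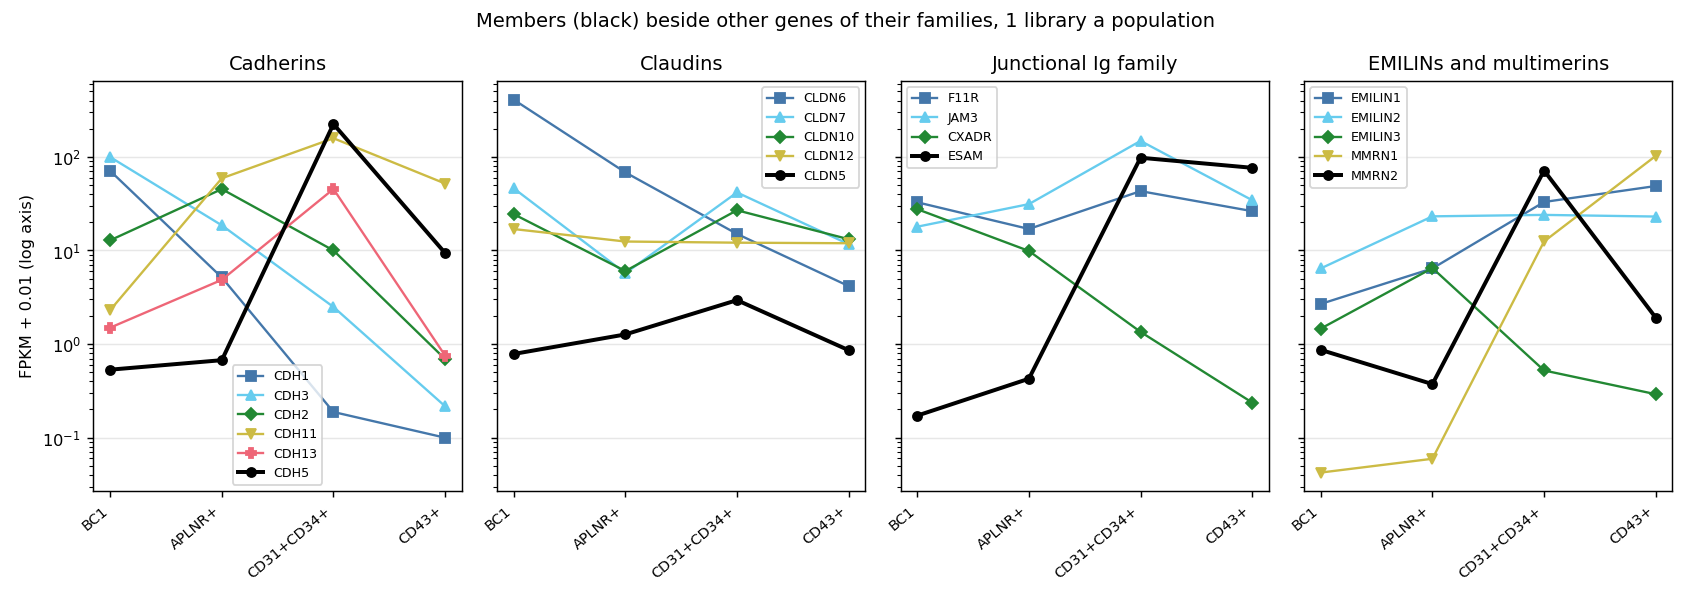
Level of CDH5, CLDN5, ESAM and MMRN2 (black) and of other genes of their families in the 4 libraries, as FPKM plus 0.01 on a log axis. CDH1 and CDH3 decline while CDH5 peaks at 224 FPKM in HEPs, CLDN5 stays under the claudins drawn, and MMRN1 reaches 102 FPKM in HPCs where MMRN2 is at 1.91 FPKM.

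Of 18 genes whose proteins join the members at the junction, 1 (PTPRB) rose into HEPs, beside 4.08% of all genes. Into HPCs 3 fell and 1 rose, beside 4.32% and 2.28%. The median change of the 18 was 0.50 and then -0.78. Catenins, which bind VE-cadherin or tie it to actin, were present throughout. CTNNA1 was at 123 FPKM in HEPs and 74.9 FPKM in HPCs. CTNNB1 was at 137 FPKM in HEPs and 74.9 FPKM in HPCs, CTNND1 at 74.0 and 34.2 FPKM and JUP at 128 and 65.8 FPKM, so that the 4 genes were lower by a factor between 1.64 and 2.16, against 23.9 for CDH5. PTPRB, the phosphatase known to act on VE-cadherin, was at 7.07 FPKM in HEPs and 0.571 FPKM in HPCs. HEG1 and CGNL1, membrane and tight junction proteins, fell 20.9-fold (17.2 to 25.5) and 17.2-fold (15.4 to 19.4) into HPCs. RAP1B, a small GTPase of junctions and platelets, rose from 175 to 729 FPKM at that step.

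Binding partners of single members went both ways in HPCs. Of the 11 that passed the filter, 5 rose into HEPs, beside 4.08% of all genes. Into HPCs 5 fell and 2 rose, beside 4.32% and 2.28%. CD93 and CLEC14A, the endothelial receptors that bind MMRN2, were at 33.5 and 13.7 FPKM in HEPs and fell 13.7-fold (12.3 to 15.3) and 19.6-fold (13.6 to 29.2) into HPCs. UNC5B, a receptor that binds ROBO4, was at 15.95, 18.9 and 17.7 FPKM up to HEPs and at 0.925 FPKM in HPCs. CAV1, the caveolin of the pits that PLVAP closes, went from 4.75 to 0.316 FPKM, while CAVIN1 was 3.33-fold lower (3.23 to 3.44) and kept 66.7 FPKM. For PECAM1 the phosphatase PTPN6, which binds its cytoplasmic tail, rose from 13.7 to 115 FPKM into HPCs, and PTPN11 was at 38.5 and 42.3 FPKM. ITGB3, the integrin subunit of platelets that is also known to bind EGFL7 as part of a receptor, rose from 6.68 to 501 FPKM.

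Among 21 other endothelial surface genes that passed the filter, 14 rose and 1 fell into HEPs, beside 4.08% and 3.15% of all genes. Into HPCs 1 rose and 12 fell, beside 2.28% and 4.32%. The 1 that fell into HEPs was APLNR, from 1073 to 209 FPKM. Its protein defined the mesoderm cells, so this fall follows their definition. APLNR is also among the 12 that fell into HPCs. ICAM2 resembled ESAM, with 71.9 FPKM in HEPs and 65.7 FPKM in HPCs. SELP, the P-selectin of endothelium and platelets, was the 1 gene that rose into HPCs, to 88.5 FPKM. FLT4 and KDR, receptors of the VEGF family, fell as CDH5 did, KDR from 569 to 38.0 FPKM. Of 20 endothelial transcription factors, 12 rose into HEPs, beside 4.08% of all genes. Into HPCs 1 (KLF4) rose and 8 fell, beside 2.28% and 4.32%. ERG, SOX7 and SOX18 were at 75.1, 84.5 and 140.0 FPKM in HEPs and at 5.68, 0.917 and 14.1 FPKM in HPCs. FLI1, LMO2 and TAL1, which blood cells also use, were at 316, 107 and 71.2 FPKM in HEPs and at 367, 188 and 184 FPKM in HPCs.

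The genes with the course most like that of a member were sought among 8931 protein-coding genes with at least 10 FPKM in a library, by the Euclidean distance of their 4 centred log2 values. Nearest to CDH5 were TFPI (0.70), TM4SF1 (0.80), HOPX (1.09), PLVAP (1.10) and STAB1 (1.22), and MMRN2 came at place 11. Nearest to PECAM1 were LAPTM5 (0.26), GMFG (0.27), TXNIP (0.41), LMO2 (0.44) and LCP2 (0.56), with ESAM at place 6 and CDH5 at place 209. Nearest to CD34 were SAMSN1 (0.79), ESAM (0.83), ICAM2 (0.86), WNT11 (0.90) and CLEC11A (0.97). CDH5 and PECAM1 shared no gene among their 5 nearest. The distances include the step from CD31+CD34+ to CD43+ that put CDH5 and PECAM1 in different classes, so this in part restates the classes. With 4 libraries these distances only describe the courses.

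ESAM and ROBO4, a kept and a lost gene, are neighbours on the minus strand of chromosome 11. Their annotated spans lie 121400 bases apart, with 2 protein-coding genes wholly between them. Those were MSANTD2, at 9.31 FPKM in HEPs and 3.13 FPKM in HPCs, and ROBO3, at 18.3 and 10.7 FPKM, so neither fell by at least 2. The other members each lie on a chromosome of their own.

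Promoter windows from 250 bases before to 50 bases after the start were held by RefSeq for 6 of the 10 members on GRCh38.p14, with 2 windows for EGFL7. The stretches outside annotated exons are shown for a lost gene, PLVAP, a kept gene, EMCN, and a partly lowered gene, EGFL7, to set side by side the letters GGAA that ETS factors such as ERG and FLI1 bind. Capitals mark GGAA or its other strand, TTCC. They cover chr19:17377351-17377592 (minus strand), chr4:100518094-100518272 (minus strand) and chr9:136662666-136662915 (plus strand, before the second start), on GRCh38.p14. The EMCN window belongs to a start at 100518022, inside the annotated span of EMCN, whose upstream end is 100880126. The MMRN2 window counted below belongs to a start at 86957615, inside a span whose upstream end is 86969481.
PLVAP: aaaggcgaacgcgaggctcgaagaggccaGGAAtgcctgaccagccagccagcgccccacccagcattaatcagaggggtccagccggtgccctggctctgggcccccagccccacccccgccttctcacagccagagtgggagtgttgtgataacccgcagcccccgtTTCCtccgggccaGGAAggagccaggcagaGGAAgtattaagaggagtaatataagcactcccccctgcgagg
EMCN: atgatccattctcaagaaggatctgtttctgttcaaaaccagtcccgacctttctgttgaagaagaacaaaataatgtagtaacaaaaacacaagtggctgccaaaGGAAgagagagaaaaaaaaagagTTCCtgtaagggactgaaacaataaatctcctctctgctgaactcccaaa
EGFL7: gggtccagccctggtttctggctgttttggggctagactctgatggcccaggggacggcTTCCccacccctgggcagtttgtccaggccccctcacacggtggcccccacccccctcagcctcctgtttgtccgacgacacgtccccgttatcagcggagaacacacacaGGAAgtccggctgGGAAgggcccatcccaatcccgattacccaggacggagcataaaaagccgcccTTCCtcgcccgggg
These stretches hold 4, 2 and 4 matches. Over whole windows and both strands, PLVAP, CD34 and ROBO4 held 4 matches to GGAA each, EMCN and MMRN2 held 5, and the EGFL7 windows held 1 and 4, beside a median of 3 in 35116 promoters, of which 95.5% held at least 1. The longer AGGAAG, which contains GGAA, was found 2 times each in the PLVAP window and the second EGFL7 window, once in those of EMCN, MMRN2 and ROBO4 and the first of EGFL7, and not in that of CD34, beside 33.6% of all promoters with a match. AGATAA, a form of the GATA motif, was matched in the ROBO4 window, beside 10.3% of promoters. Other forms of the GATA motif were not searched for. TGTGGT, the RUNX motif, was matched 2 times in the MMRN2 window, where 1.31% of promoters held at least as many. It was matched 1 time in the first EGFL7 window, beside 13.1% with a match. AACAAT, the SOX motif, was matched in the EMCN window, beside 10.1%. Windows of all 3 classes held GGAA.

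Markers of other cell types moved in the same libraries. Of 9 hematopoietic markers that passed the filter, 7 rose into HEPs and 4 rose into HPCs, beside 4.08% and 2.28% of all genes. The sum of the list was 14.0, 20.5, 394 and 1864 FPKM in the 4 populations. PTPRC, the gene of CD45, rested on about 4, 4, 1 and 4 fragments. The sums of markers are taken over all 10 genes of each list, including those that did not pass. Of 10 platelet and megakaryocyte markers, 5 and then 8 rose, and their sum was 101 FPKM in HEPs and 3751 FPKM in HPCs, where none was listed at 0. ITGA2B counts both in this list and in the hematopoietic one, with 60.9 FPKM in HEPs and 982 FPKM in HPCs. PECAM1, ESAM and MMRN1, which platelets carry, were kept or rose in that library, and the part of these cells in their values was not tested. Of 8 mesenchymal and smooth muscle markers that passed, 3 rose into HEPs and 4 fell into HPCs, beside 4.08% and 4.32% of all genes. The sums of this list were 549 and 88.8 FPKM in HEPs and HPCs. The part of mesenchymal and smooth muscle cells in the lost genes was not tested. Of the markers that define endothelium beside the members, KDR, TIE1, TEK, ERG and SOX7 were at 569, 226, 82.5, 75.1 and 84.5 FPKM in the library labelled CD31+CD34+. CD34 intervals use a transcript of 8246 bases and would be wider with a shorter one.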

How the data were processed

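The study had sequenced total RNA of 4 populations, 1 TruSeq library (Illumina) each. The authors deposited 1 table of FPKM values per gene. The submitters' processing notes name BWA, Bowtie, RSEM and hg19, without roles or versions. The loci of the table match GENCODE 29 on GRCh38 (99.996% of single-row identifiers of the same version), so GRCh38 positions are given, counted from 1. Whether strand was used is not given in the sources used here.

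Rows of 1 gene identifier were summed. Changes were differences of log2(FPKM + 1), which understates the fold of low genes, over genes that reached 1 FPKM in 1 or more libraries. A call was a change of at least 2. No replicate exists, so no p-value was computed. Depth was read from the steps between low values of genes with 1 transcript of at least 1000 bases: with the depths given, from 92.8% to 94.7% of low values fell within 0.1 of a whole fragment. Fragments used the longest principal transcript. Levels have exact Poisson and folds exact Clopper-Pearson 95% intervals, with a floor of 3 fragments. The steps were tested on simulated data. Named genes were the members, their paralogs, at most 4 genes a list with the largest change among those with at least 10 FPKM, the 5 nearest courses and markers; others named to show a partner or neighbour were chosen after their values were seen. Members and lists were chosen with earlier results of these data known. Other pseudocounts, scalings, filters and thresholds were tried. Python 3.11.15, numpy 2.4.6, pandas 2.3.3, scipy 1.17.1 and matplotlib 3.10.9 were used.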

Additional observations from a re-analysis of the deposited data

How the results depend on the processing

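All 30 changes of the members, 10 genes at 3 steps, kept their direction with a pseudocount of 0.1, with both other scalings and with the highest row of each gene in place of the sum. A pseudocount of 0.1 moved them by -1.44 to 2.04, the scalings by at most 0.14. Scaling by median of ratios put ROBO4 at -1.99 into HPCs, so that 3 members in place of 4 fell by at least 2. With that pseudocount the shares of all genes called higher and lower were 5.91% and 6.41% at the first step (into mesoderm), 8.48% and 7.85% at the second (into HEPs), and 4.71% and 9.89% at the last (into HPCs). Without the filter they were 0.789% and 0.674%, 1.20% and 0.925%, and 0.671% and 1.27%. With that pseudocount EMCN also passed the threshold into HEPs, which made 9 members in place of 8. With a threshold of 1 in place of 2, 1 member was higher at the first step and 7 were lower at the last. A threshold of 3 and a filter of 5 FPKM moved no count of members or share by over 1.5 times. CLDN5 rests on at most 76 fragments in any library, and EMCN, ESAM and ROBO4 on at most 14 in each of the first 2. No paired analysis was possible because each population had 1 library. With 1 library each, the spread between cultures is unknown, and counting intervals are narrower than it may be.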
